A study of Mus musculus with 15 samples.

Results

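The data compared polypoid colon tissue of mice given 5-aminosalicylic acid (5-ASA, mesalamine) with polypoid colon tissue of untreated mice. The samples were chosen by their titles, treated-polypoid and untreated-polypoid, which took 8 of the 15 arrays and 4 of the 8 mice of the study, 2 mice in each arm. All mice were female Swiss Webster mice, injected at 7 weeks of age with azoxymethane, a colon carcinogen, at 7.4 mg/kg. From 9 weeks they went through 3 cycles of 4% dextran sulfate sodium, which injures the colon lining, each with 7 days of this agent and 21 days of water, and they were killed at 18 weeks. After the carcinogen the treated arm received 5-ASA at 75 mg/kg and the untreated arm received vehicle (0 mg/kg), so both arms carried the carcinogen and the colitis agent. Polypoid areas were cut by laser capture from 5 µm frozen sections, and their RNA was amplified in 2 rounds and hybridised against a universal mouse reference RNA. The number of polyps behind a sample and their histological grade are not stated in the labels.

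5-ASA is a salicylate that acts within the bowel lumen and is a standard maintenance drug of ulcerative colitis. As background, its described targets include the nuclear receptor PPAR-gamma, NF-kB signalling, cyclooxygenase products, reactive oxygen species and Wnt/beta-catenin signalling. In polyps of this model, beta-catenin accumulates in the nucleus, target genes of the Wnt pathway are active and the program of the mature surface colonocyte is reduced.

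Each animal's value for a gene was the log2 of its sample over the reference RNA, averaged over a pair of arrays with swapped dyes for each of the 4 polypoid animals. A difference (5-ASA minus untreated) is given on the log2 scale, from 2 animals against 2. Its SE and p are limma's. They use 1 spread per gene, estimated over all 4 groups (8 animals, the inflamed ones included) and drawn toward that of other genes. An adjusted p is limma's after Benjamini-Hochberg adjustment over all 21301 genes tested. The animals numbered 1 of both arms were scanned in 1 session and those numbered 2 in another, so the difference within each replicate pair (1 animal against 1) is also a difference within a scan session. P-values and SEs measure only the spread between animals within the 4 groups, which includes any difference between sessions. It is not the spread of the polypoid animals alone.

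No gene passed at an adjusted p under 0.05 in polypoid tissue (0 of 21301, or 0%; smallest adjusted p = 0.434). At an unadjusted p under 0.05 there were 1646 genes (7.73%), 959 higher (4.5%) and 687 lower (3.23%) with 5-ASA. These shares are the background for the counts below that use all animals. The count was 790 without treated replicate 2, 1233 without untreated replicate 2, 1734 without treated replicate 1 and 2458 without untreated replicate 1. Genes below are therefore called higher or lower only as measured differences, and a count of members "at p under 0.05" refers to the unadjusted value. With an animal left out, the shares of all genes higher and lower move too. A list count in such a setting therefore has another background and is not set against 4.5% and 3.23%. Over all genes the median difference was 0.0089. The arms did not overlap for 4519 genes (21.2%) with the treated animals higher and for 4106 (19.3%) with them lower. By size alone, 336 genes lay more than 2-fold higher and 343 more than 2-fold lower.

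Correlated over genes, which share their animals and so are not replicates, the treated animals reached r = 0.914 and the untreated animals 0.871. The untreated animals differed from each other by more than 2-fold in 1513 genes and the treated ones in 714. On the first principal component, with 48.6% of the variance, the treated polyps lay at 58.0 and 54.5, untreated polyp replicate 2 at 36.1 and untreated polyp replicate 1 at 14, while inflamed samples lay between -50.5 and -28.5. Untreated polyp replicate 1 thus stood apart from the other polyps, toward the inflamed samples, and results that rest on it are also given without it. Pan-epithelial markers were present in all 4 polypoid samples: all 20 measured markers were well above background on all 8 polypoid arrays, and their median level was 3.65 and 3.50 in untreated and 3.42 and 2.82 in treated polyps. The differences of the replicate pairs correlated at 0.237 across genes, and 12332 genes (57.9%) had the same sign in both pairs, 6522 (30.6%) higher and 5810 (27.3%) lower. The plot of the differences in both pairs shows this spread, with Hao2 and Aqp8 far to the lower left and Irx5, Apcdd1 and Cxcl1 to the upper right.

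**Figure D1:**
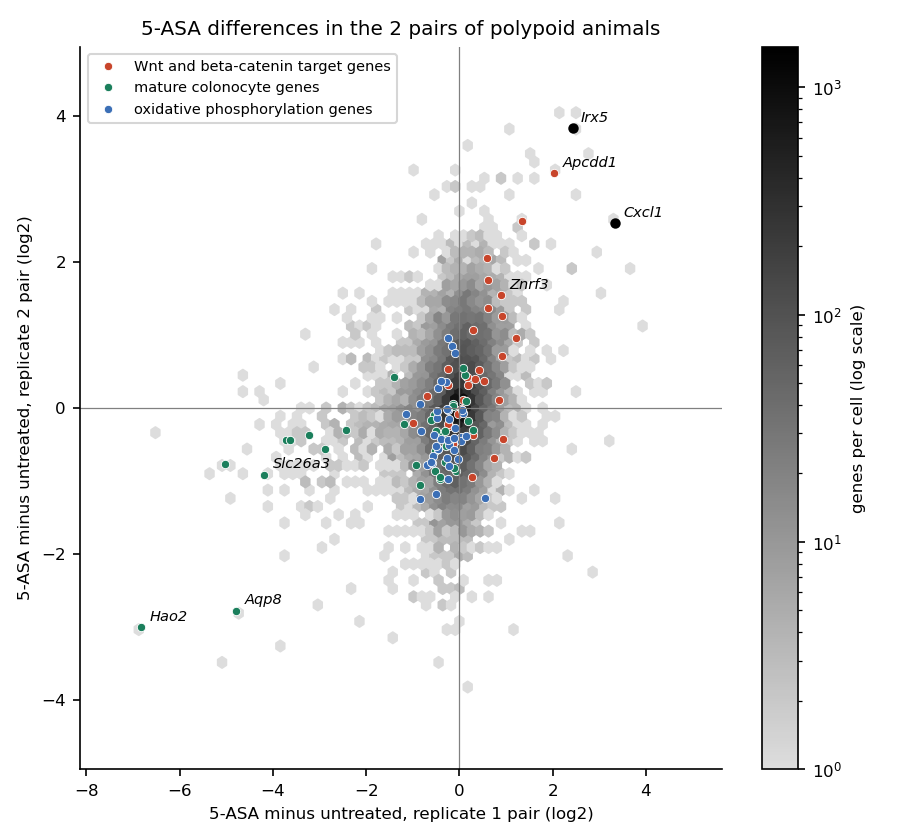
Difference of 5-ASA minus untreated polyps (log2) in the replicate 1 pair (x axis) and the replicate 2 pair (y axis), with grey cells for the number of genes on a log scale and coloured points for members of 3 gene lists. Irx5 and Cxcl1 are black points, and Hao2 reached -6.83 and -3.00 in the pairs.

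The genes with the smallest p among those that differed the same way in both pairs, with no overlap between the arms, were described first, 12 in each direction, and all 24 had an adjusted p of 0.434. Because they were chosen by this contrast, their values are a description. Among the genes higher with 5-ASA were a developmental transcription factor and several membrane proteins. Irx5, an Iroquois homeobox transcription factor, stood at -0.16 and -1.58 in the untreated polyps and at 2.27 and 2.26 in the treated ones, a difference of 3.13 ± 0.47 (8.78-fold). Prom2, a cholesterol-binding protein of membrane protrusions related to the stem cell antigen prominin 1, stood at 0.93 and 0.60 untreated and at 2.32 and 2.33 treated (1.56 ± 0.15, 2.95-fold). Adgrg2, an adhesion G protein-coupled receptor, stood at -3.05 and -3.47 untreated and at -1.91 and -1.69 treated (1.46 ± 0.21). The treated animals lay close together for Irx5 and Prom2, and the untreated animals differed more.

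Aspa, the enzyme that cleaves N-acetylaspartate, was 3.47-fold higher (1.56 and 0.91 untreated, 3.19 and 2.87 treated). Ube2e2, a ubiquitin-conjugating enzyme, was 2.56-fold higher, and the xylosyltransferase Gxylt2, which extends sugars on Notch, was 2.62-fold higher. Rcor2, a corepressor that partners the histone demethylase LSD1, stood at -2.71 and -2.60 untreated and at -1.66 and -1.21 treated. The others of this direction were Wdr72 (2.04-fold), a protein of endocytic vesicles, the dynein intermediate chain Dync1i1 (1.78-fold), the apical membrane fusion protein Stx3 (1.87-fold, with 1 of 4 other probes opposite) and the histone gene H4c9 (1.93-fold). H4c9 belongs to a family of near-identical histone genes, so its probe may read other members.

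Aqp8, the water channel of colonocytes, was among the 12 lower genes: it stood at 4.69 and 2.74 in untreated polyps and at -0.09 and -0.03 in treated ones (-3.78 ± 0.59, 13.8-fold lower). Sycn, a syncollin known from secretory granules of the pancreas, stood at 4.63 and 3.79 untreated, saturated on 2 of 4 arrays, and at 0.76 and 0.52 treated, with saturated spots kept at their value. Spink6, a serine protease inhibitor, stood at 4.26 and 3.42 untreated and at 1.20 and 0.69 treated (7.46-fold lower). Both arms were thus far apart for these 3 genes, with the treated animals within 1 log2 unit of the reference for Aqp8 and Sycn.

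Olr1, a scavenger receptor for oxidised lipoprotein, was 3.07-fold lower, with 3.36 and 3.05 untreated against 1.79 and 1.39 treated. Akr1e1, an aldo-keto reductase, was 3.77-fold lower, Rps4l, a ribosomal protein S4-like gene, 3.72-fold, Clstn1, a calsyntenin, 1.81-fold, and Mcrip2, a small protein of stress granules, 2.06-fold. The remaining 4 encode proteins of mitochondria or peroxisomes. Mecr, the last enzyme of mitochondrial fatty acid synthesis, stood at 1.20 and 1.1 untreated and at -0.08 and -0.16 treated (-1.27 ± 0.14). Chchd10, a protein of the mitochondrial intermembrane space, stood at 0.51 and 0.80 untreated and at -0.85 and -1.47 treated (-1.82 ± 0.27). Dglucy, the mitochondrial D-glutamate cyclase, was 3.04-fold lower and Pex11a, a factor of peroxisome division, 1.89-fold lower. The plot of the lead genes shows each animal.

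**Figure D2:**
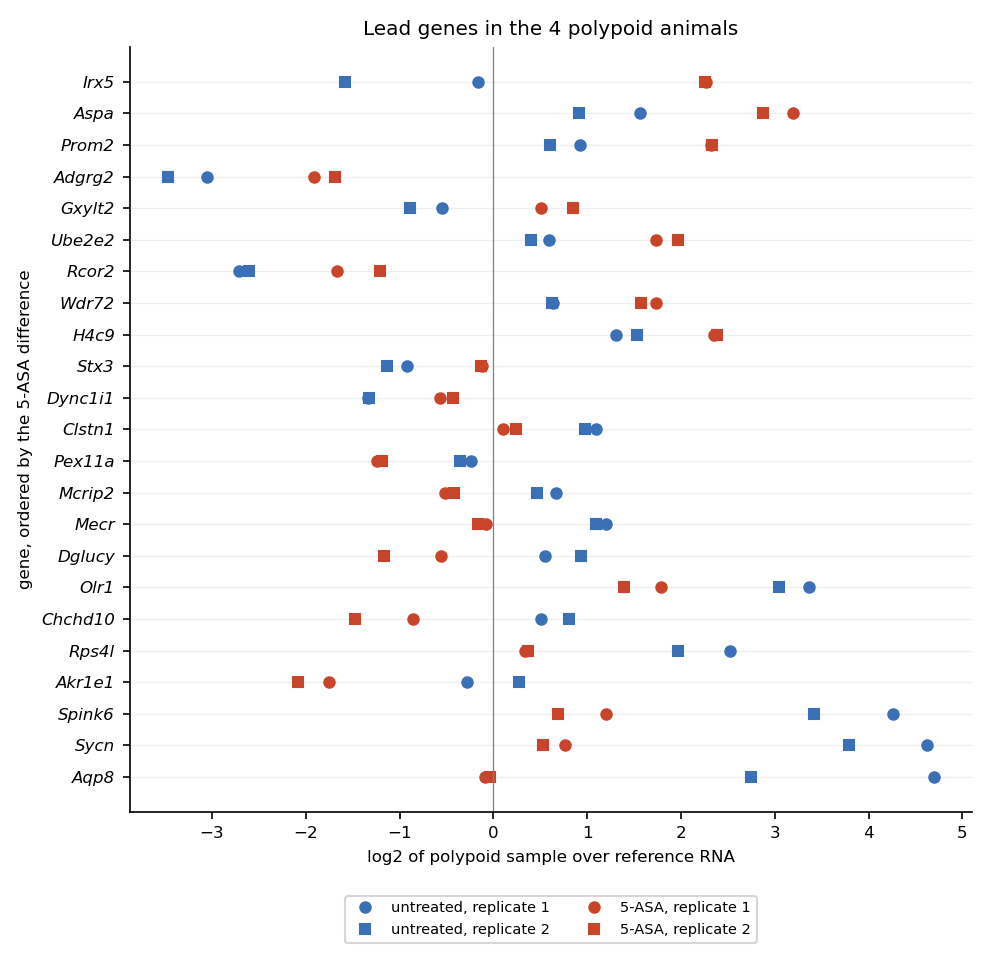
Log2 of sample over reference (x axis) for 23 of the 24 lead genes in the 2 untreated (blue) and 2 treated (red) polypoid animals, circles for replicate 1 and squares for replicate 2. The arms do not overlap for any of them, as the choice required, and Aqp8 shows the widest gap between the untreated animals, 4.69 and 2.74.

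Wnt target genes stood higher with 5-ASA. Wnt ligands stabilise beta-catenin, which then activates target genes with TCF/LEF factors, and many of the targets feed back on the pathway. Of 31 measured members of a list of Wnt pathway and target genes, 9 were higher at p under 0.05 and 0 lower, beside 4.5% and 3.23% of all genes. In both pairs 17 members were higher and 6 lower (30.6% and 27.3% of all genes), and the list's median difference was 0.25, with 0.30 and 0.32 in the pairs and 0.35 without untreated replicate 1. The higher count was 4 without treated replicate 2, 5 without treated replicate 1, 6 without untreated replicate 2 and 9, with 2 lower, without untreated replicate 1. The median was 0.61 with scaling between arrays and 0.14 with the mean over a gene's probes.

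Axin2, a scaffold of the beta-catenin destruction complex and a classical feedback target, stood at 4.14 and 3.56 untreated and at 4.75 and 4.93 treated (0.99 ± 0.38, adjusted p = 0.63 in limma). Znrf3, a ubiquitin ligase that removes Wnt receptors from the surface, stood at -0.03 and -0.33 untreated and at 0.87 and 1.22 treated (1.22 ± 0.20, adjusted p = 0.44). Apcdd1, a membrane inhibitor of Wnt receptors, stood at 2.11 and 1.47 untreated and at 4.15 and 4.69 treated (2.63 ± 0.48, adjusted p = 0.45), with 1 of the 4 treated arrays saturated. Treated animals were above untreated ones for all 3 genes, as for 21.2% of all genes tested. Znrf3 and Apcdd1 were named for their small p in this contrast, which favoured such a separation. Zfp503, a zinc finger repressor, was 3.89-fold higher (-0.61 and -2.15 untreated, 0.74 and 0.42 treated).

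The other 5 of the 9 include Ctnnb1, Lef1 and Dkk3, which were chosen for naming after their values were seen. They were Ctnnb1, which encodes beta-catenin itself (0.49 and 0.65 untreated, 1.41 and 1.37 treated, saturated on 1 treated array), the transcription factors Lef1 (1.09 ± 0.27) and Prox1 (1.09 ± 0.39), the secreted Dkk3 (1.18 ± 0.36) and the receptor Tnfrsf19 (1.32 ± 0.51). Not all feedback genes stood higher. Nkd1, an intracellular Wnt antagonist, stood at 6.09 and 5.61 untreated and at 6.17 and 5.72 treated, and the Wnt deacylase Notum (0.30 ± 0.37) and the transcription factor Sp5 (0.04 ± 0.60) also overlapped between arms. Lgr5, the stem cell receptor for R-spondins, differed by -0.27 ± 0.67 and Ascl2, a transcription factor of stem cells, by -0.24 ± 0.15. Of 23 intestinal stem cell genes, 3 were higher at p under 0.05, Znrf3, Axin2 and Tnfrsf19, which are also in the Wnt list, and 0 were lower. The stem cell list's median difference was 0.088, with 13 members positive and 10 negative, and 0.009 with the mean over a gene's probes. The stem cell median was 0.35 without untreated replicate 1 and 0.13 without untreated replicate 2. It was 0.20 without treated replicate 1 and 0.054 without treated replicate 2. Leaving out a treated animal reduced the higher count, and leaving out an untreated animal brought members that were lower at p under 0.05.

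Promoters of 2 of these genes hold the core letters read by TCF/LEF factors, CTTTGA on either strand, and are shown to place the motif. The windows are the 250 bases before the start site from RefSeq (GRCm38.p6, minus strand for both), at chr14:21989602-21989851 for Zfp503 and at chr14:61037988-61038237 for the second of 2 start sites of Tnfrsf19. Capitals mark the motif, here in its reverse complement, which begins 209 and 201 bases before the start site.
Zfp503: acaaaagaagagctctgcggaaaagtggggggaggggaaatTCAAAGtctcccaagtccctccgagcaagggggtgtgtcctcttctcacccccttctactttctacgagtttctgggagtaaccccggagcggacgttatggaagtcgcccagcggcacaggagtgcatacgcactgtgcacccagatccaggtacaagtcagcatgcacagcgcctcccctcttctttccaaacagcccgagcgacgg
Tnfrsf19: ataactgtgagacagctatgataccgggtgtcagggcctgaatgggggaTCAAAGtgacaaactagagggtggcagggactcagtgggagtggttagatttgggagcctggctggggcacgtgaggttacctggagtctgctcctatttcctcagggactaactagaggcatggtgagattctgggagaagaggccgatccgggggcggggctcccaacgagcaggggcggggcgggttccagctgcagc
For motif counts, here and below, the windows searched also held the 50 bases after the start site. Of 21 Wnt list genes matched in the promoter table, 5 (23.8%) held this motif in such a window, against 18.2% of all 27025 genes in the table. The match is a description of letters and not a binding site.

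Genes of the mature surface colonocyte stood lower with 5-ASA. These cells absorb salt and water, and their genes mark differentiation. Of 33 measured members, 7 were lower at p under 0.05 (3.23% of all genes) and 0 higher, and 25 were lower in both pairs (27.3% of all genes). The list's median difference was -0.53, with -0.53 and -0.43 in the pairs. Its median level was 2.44 and 1.62 in untreated and 0.62 and 0.67 in treated polyps, so both treated animals lay below both untreated ones. Without untreated replicate 1 the median was -0.32, with 3 members lower and 1 higher. The lower count was 4 without treated replicate 2, 5 without treated replicate 1 and 13 without untreated replicate 2.

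Hao2, a peroxisomal hydroxyacid oxidase, stood at 7.44 and 3.28 untreated and at 0.62 and 0.27 treated (-4.91 ± 1.24, 30.1-fold lower, adjusted p = 0.55 in limma). Without untreated replicate 1 its difference was -2.83. Slc26a3, which exchanges chloride for bicarbonate at the apical membrane, stood at 4.25 and 0.88 untreated and at 0.06 and -0.04 treated, with 1 of its 2 other probes opposite. The untreated animals were thus more than 4 log2 units apart for Hao2 and more than 3 apart for Slc26a3. The treated animals lay together, for Slc26a3 near 0, where probes dim in both channels also read. This closeness need not be agreement of the animals. Ceacam20, an adhesion molecule of the brush border, was close in both arms, at 1.66 and 1.78 untreated and at 0.82 and 0.72 treated (-0.95 ± 0.17, adjusted p = 0.44).

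Car4, a membrane carbonic anhydrase, stood at 3.02 and 0.40 untreated and at 0.13 and -0.16 treated, and the soluble carbonic anhydrase Car1 at 2.76 and 2.87 against 2.45 and 2.13. The sulfate transporter Slc26a2 differed by -0.85 ± 0.33, and the last 2 of the 7, chosen after their values were seen, were the gluconeogenic enzyme Pck1 (-2.90 ± 1.1) and the guanylin gene Guca2a (-1.37 ± 0.55). Without untreated replicate 1, Pck1 differed by -1.22 and Slc26a3 by -0.86. In a list of 35 ion and water transporters, 5 were lower and 0 higher. Aqp8, Slc26a2 and Slc26a3 are also members of the colonocyte list, and the others were Aqp11, an intracellular water channel (-0.44 ± 0.18), and Clcn2, a chloride channel (2.39 and 2.46 untreated, 1.80 and 1.84 treated). The transporter count was 2 without untreated replicate 1, 2 without treated replicate 1, 3 without treated replicate 2 and 9 without untreated replicate 2.

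The Hao2 promoter is shown because this gene had the widest difference of the list and because its window holds TTTATG, the core letters of the intestinal CDX factors. The 250 bases before the start site (RefSeq, GRCm38.p6, chr3:98893231-98893480, minus strand) are given with the motif in capitals, 111 bases before the start.
Hao2: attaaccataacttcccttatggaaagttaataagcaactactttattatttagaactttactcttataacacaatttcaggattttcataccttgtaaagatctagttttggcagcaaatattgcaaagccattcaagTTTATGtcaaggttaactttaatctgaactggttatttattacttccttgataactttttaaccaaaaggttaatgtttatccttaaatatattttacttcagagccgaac
Both strands were searched, with the 50 bases after the start site included. Of 25 matched colonocyte genes, 5 (20%) held the motif against 13.6% of all genes in the table. Counted by window, the shares were 17.9% and 11.9%. The match is a description of letters and not a binding site. Cdx1, the intestinal homeobox factor, stood at 2.14 and 1.99 untreated and at 1.18 and 0.81 treated (-1.07 ± 0.22, adjusted p = 0.47 in limma). A link between Cdx1, these letters and the colonocyte differences was not tested.

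Among 20 pan-epithelial genes, 5 were lower and 1 higher at p under 0.05, with a median of -0.38 (-0.32 and -0.44 in the pairs). It was -0.10 with scaling between arrays, -0.26 without untreated replicate 1, -0.58 without treated replicate 1 and -0.22 without treated replicate 2. Vil1, the actin bundler of microvilli, stood at 5.43 and 5.30 untreated and at 4.96 and 4.35 treated, and the adhesion gene Cdh1 at 3.45 and 3.59 against 3.17 and 2.83. Esrp1, an epithelial splicing regulator, was the higher member (2.32 and 1.69 untreated, 2.83 and 2.81 treated). Epcam, Krt8 and Krt18 overlapped between arms, and both keratins were saturated on all 8 polypoid arrays. The lower count was 1, with 2 higher, without treated replicate 2, and it was 2 without untreated replicate 2, 4 without untreated replicate 1 and 5 without treated replicate 1.

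The other epithelial lineages showed wide gaps between the untreated animals. Of 25 goblet cell genes, 4 were lower and 0 higher, with a median of -0.58 made of -1.06 in the replicate 1 pair and 0.06 in the replicate 2 pair. The median was -0.16 without untreated replicate 1, with 1 member lower, and -0.14 without treated replicate 1, with 0 lower. The lower count was 7 without treated replicate 2 and 9, with 1 higher, without untreated replicate 2. With scaling between arrays the median was -0.26, and it was -0.29 over arrays with the sample in Cy3. Clca1, a secreted mucus protein, stood at 6.43 and 6.58 untreated, saturated on 2 arrays, and at 3.84 and 5.18 treated, while Muc2, the gel-forming mucin, stood at 4.09 and 2.83 against 2.10 and 2.54. Tff3, a trefoil peptide, overlapped between arms.

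Hormone genes of enteroendocrine cells were high in 1 untreated animal. Gcg, which encodes proglucagon, stood at 5.24 and 0.89 untreated and at -0.06 and 0.01 treated, and Insl5 at 3.59 and 0.63 untreated and at -0.07 and 0.10 treated. The granule protein gene Chgb stood at 4.81 and 1.84 untreated and at -0.10 and 0.61 treated (-3.07 ± 0.93, adjusted p = 0.59 in limma), a difference of -1.58 without untreated replicate 1. Over the list of 22 genes, 1 was lower and 1, the transcription factor Isl1, was higher (0.43 ± 0.15), and 7 were lower without untreated replicate 2. In bulk samples, fewer cells of a type and less RNA per cell cannot be told apart.

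Tuft cell genes (15 measured) had 0 members at p under 0.05 in either direction, and Dclk1, Pou2f3 and Il25 each differed by less than 0.2. Of 16 Paneth-type antimicrobial genes, 1 was lower, the lysozyme Lyz2, which is also expressed by macrophages and was saturated on all 8 polypoid arrays. Lyz1 stood at 6.06 and 5.6 untreated and at 5.70 and 5.68 treated. Of 28 genes of fetal-like repair epithelium, 2 were higher and 2 lower, with a median of -0.26 that was 0.14 and -0.49 in the pairs and -0.12 with median centring and no loess. The membrane protein Emp1 was higher (1.23 ± 0.32), and the EGF receptor ligand Ereg (-0.79 ± 0.25) and the barrier protein Sprr1a (-1.22 ± 0.42) were lower, while Ly6a, a widely used marker of this state, overlapped between arms.

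Genes of oxidative phosphorylation stood lower with 5-ASA. The list holds subunits of the respiratory complexes, which make most of a colonocyte's ATP. Of 40 measured members, 10 were lower at p under 0.05 (3.23% of all genes) and 0 higher, and 27 were lower and 0 higher in both pairs. The median difference was -0.35, with -0.27 and -0.41 in the pairs and -0.36 without untreated replicate 1. The median level was 0.56 and 0.51 in untreated and 0.15 and 0.10 in treated polyps. The lower count was 1 without treated replicate 2, 6 without untreated replicate 1, 6 without untreated replicate 2 and 7 without treated replicate 1, while the median stayed between -0.36 and -0.31 in these 4 settings. With median centring and no loess it was -0.19. Without untreated replicate 1 and without treated replicate 1, 1 member was higher.

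Ndufb8, an accessory subunit of complex I, stood at 0.67 and 0.38 untreated and at -0.03 and -0.40 treated (-0.74 ± 0.19, adjusted p = 0.56 in limma). Cox7b and Cox5b, subunits of complex IV, differed by -0.68 ± 0.20 and -0.68 ± 0.22, with 0.73 and 0.40 against 0.12 and -0.34 for Cox7b and 0.84 and 1.1 against 0.24 and 0.35 for Cox5b. The arms did not overlap for these subunits, as for 19.3% of all genes tested on the lower side. They were named for their small p in this contrast, which favoured such a separation. Uqcrc1, a core protein of complex III chosen after its value was seen, had the largest difference of the list, -1.05 ± 0.39. Ndufa1, Ndufa2, Ndufa4 and Ndufa5, the first 4 members of the list, overlapped between arms, and Ndufa1 had a positive difference (0.36 ± 0.29). The letters GCGCATGC, the core read by the respiratory factor NRF1, were found on either strand in windows of 4 of 29 matched members (13.8%) and of 3.05% of all genes in the promoter table. These windows ran from 250 bases before to 50 bases after the start site.

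**Figure D3:**
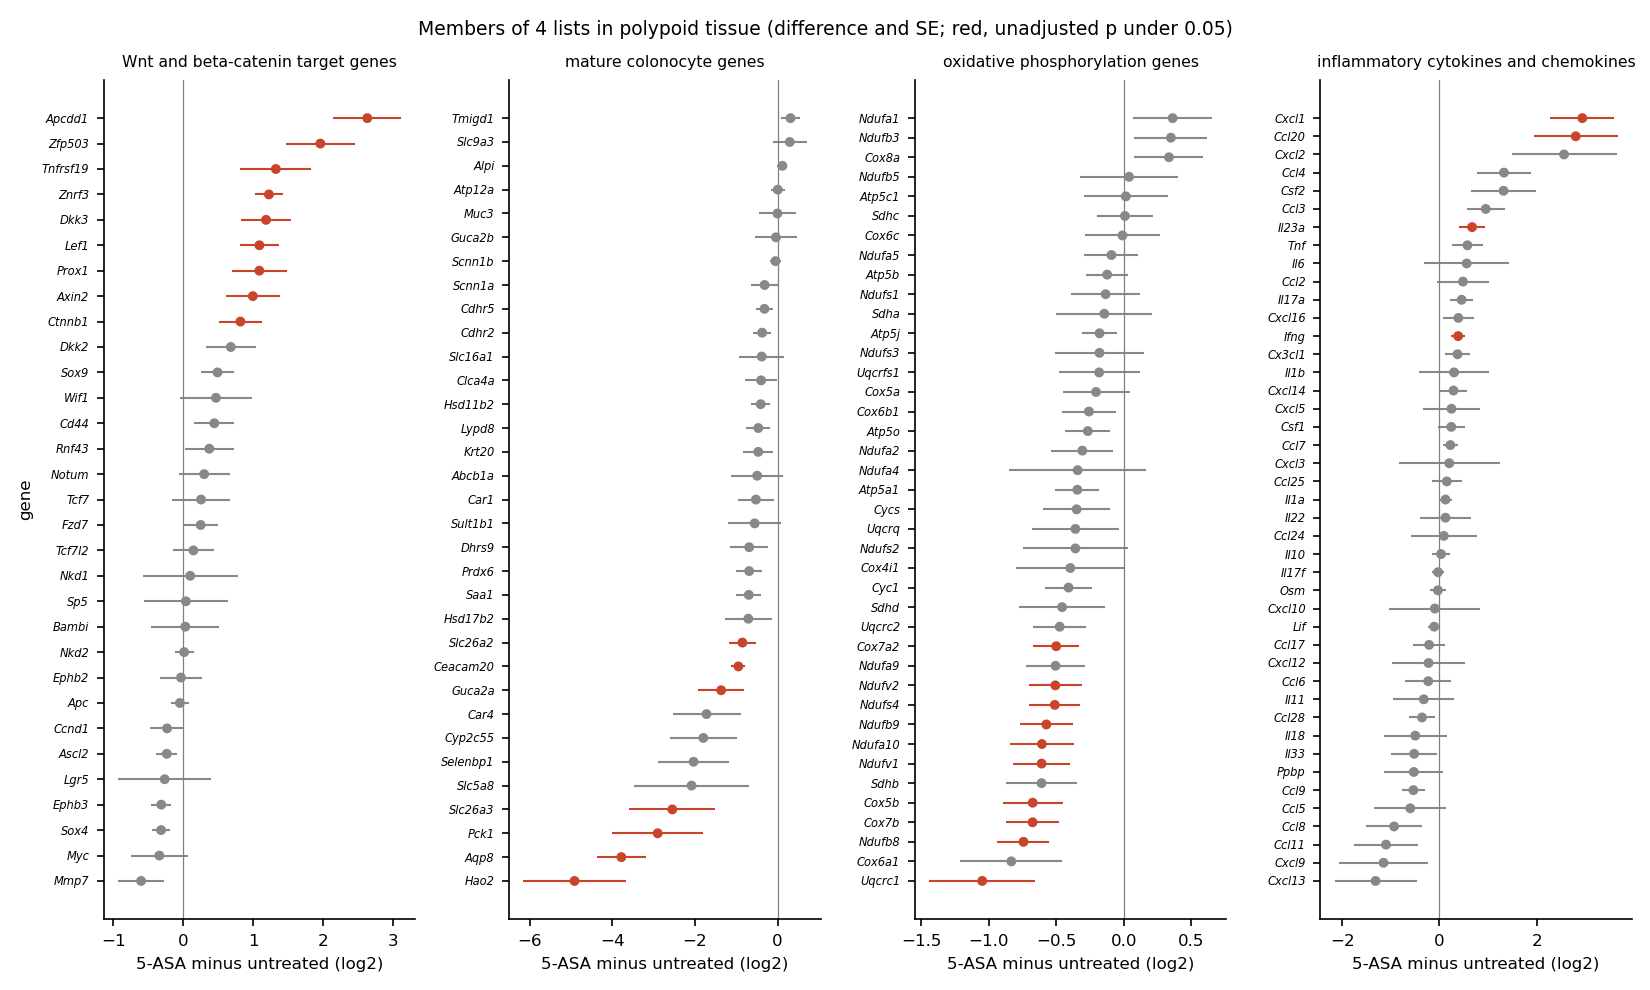
Difference of 5-ASA minus untreated polyps (log2, x axis) with its SE for each member of 4 lists, in red at an unadjusted p under 0.05. The points run from -4.91 for Hao2 to 2.63 for Apcdd1 in the first 2 panels, and all 10 red oxidative phosphorylation genes lie below 0.

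PPAR receptors, which sense fatty acids and switch on their oxidation, differed little: Pparg stood at 2.56 and 3.18 untreated and at 2.72 and 2.31 treated, and Ppara, Ppard and the partner receptor Rxra each had a difference under 0.5 in size. Of 39 receptors and targets, 4 were lower and 1 higher, with a median of -0.18 that was -0.048 without untreated replicate 1 and -0.10 with median centring and no loess. Acaa2, the thiolase of mitochondrial beta-oxidation, stood at -0.82 and -0.70 untreated and at -1.27 and -1.43 treated, and the mitochondrial carrier Ucp2 at 2.22 and 2.37 against 1.51 and 1.23. Pdk4, the kinase that turns off pyruvate dehydrogenase, was 4.57-fold higher (-2.19 and -3.28 untreated, -0.94 and -0.15 treated; adjusted p = 0.53 in limma). Glycolysis and hypoxia genes, 32 measured, had a median of 0.00 with 1 higher, the mitophagy gene Bnip3 (1.30 ± 0.36), and 1 lower, the angiogenic factor Vegfa (-0.55 ± 0.22, with 1 of 2 other probes opposite).

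NRF2 is the transcription factor that induces antioxidant and detoxifying enzymes. Its own gene Nfe2l2 (0.11 ± 0.22) and that of its inhibitor Keap1 (-0.01 ± 0.22) overlapped between arms. Of 46 list members, 4 were lower and 0 higher, 22 were lower and 2 higher in both pairs, and the median was -0.42, with -0.11 and -0.51 in the pairs. Cbr3, a carbonyl reductase, stood at 0.87 and 0.43 untreated and at -1.40 and -1.99 treated (-2.35 ± 0.41, 5.08-fold lower, adjusted p = 0.44 in limma). Srxn1, which restores oxidised peroxiredoxins, differed by -0.93 ± 0.25 and Gclc, the rate-limiting subunit of glutathione synthesis, by -0.81 ± 0.28, while Hmox1 overlapped between arms. The lower count was 2 without treated replicate 2, 9 without treated replicate 1 and 10 without untreated replicate 1.

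Nat1 and Nat2, N-acetyltransferases that include the enzyme known to acetylate 5-ASA in the mucosa, overlapped between arms. Nat1 stood at -0.29 and -0.78 untreated and at -0.65 and -0.66 treated, and Nat2 at 1.02 and -0.33 against 0.88 and 0.53. Of 46 genes of drug metabolism and efflux, 2 were lower at p under 0.05 and 0 higher, with a median of -0.44 that was -0.67 and -0.08 in the pairs and -0.14 without untreated replicate 1. The 2 were the monoamine oxidases Maob (0.44 and -1.37 untreated, -1.76 and -1.96 treated) and Maoa (1.37 and 0.41 untreated, 0.19 and 0.03 treated). Without untreated replicate 2 the list had 19 lower and 1 higher, and without untreated replicate 1 it had 0 lower and 1 higher.

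Among chemokines, Cxcl1 and Ccl20 were higher in the treated polyps, and Cxcl2 is given beside them. Cxcl1, a neutrophil chemokine, stood at 1.89 and 0.78 untreated and at 5.23 and 3.31 treated (2.94 ± 0.66, 7.67-fold, adjusted p = 0.53 in limma). Ccl20, which attracts cells bearing CCR6, stood at 2.01 and 1.1 untreated and at 5.73 and 2.99 treated (2.80 ± 0.87, adjusted p = 0.60). Cxcl2, another neutrophil chemokine, chosen after its value was seen, stood at 1.57 and 0.70 untreated and at 5.52 and 1.88 treated, a difference of 3.95 in the replicate 1 pair and 1.17 in the replicate 2 pair. Treated animals were above untreated ones for all 3, as for 21.2% of all genes tested, and treated replicate 1 was the highest each time. These genes were chosen by their p or value in this contrast, which favoured such a separation.

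Of 43 inflammatory cytokines and chemokines, 4 were higher at p under 0.05 and 0 lower, with a median of 0.12. That median was -0.072 without treated replicate 1, -0.078 without untreated replicate 2 and 0.31 without either of the other animals, and it ran from 0.05 with the deposited value table to 0.26 with scaling between arrays. Beside Cxcl1 and Ccl20, the others were Ifng (0.38 ± 0.14) and, chosen after its value was seen, Il23a (0.67 ± 0.26). Il1b, among the most abundant cytokines of neutrophils and macrophages, stood at 6.44 and 5.35 untreated and at 7.21 and 5.18 treated, and Il6 and Tnf also overlapped. The counts depended on single animals: 13 higher and 1 lower without treated replicate 2, 2 and 1 without treated replicate 1, 1 and 5 without untreated replicate 2, and 4 and 0 without untreated replicate 1.

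In the list of NF-kB pathway and feedback genes, 5 of 34 were higher and 0 lower, and the median of 0.20 was 0.33 in the replicate 1 pair and -0.15 in the replicate 2 pair. Nfkb1, the p105 subunit gene, stood at 0.68 and -0.34 untreated and at 1.08 and 1.34 treated, and the bacterial lipoprotein receptor Tlr2 at 1.95 and 1.41 against 2.73 and 2.36. Beside Ccl20, the others, chosen after their values were seen, were the ubiquitin ligase Birc2 (0.70 ± 0.25) and the feedback inhibitor Tnfaip3 (1.12 ± 0.45). Rela, Relb and Nfkb2 overlapped between arms. The median was -0.19 without treated replicate 1, with 1 higher and 1 lower, and the count was 10 higher without treated replicate 2 and 0 in either direction without untreated replicate 2, where the median was 0.061. Other processing gave medians from 0.11 with the mean over a gene's probes to 0.31 with median centring and no loess, and it was 0.36 without untreated replicate 1 and 0.49 without treated replicate 2.

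The Cxcl1 and Cxcl2 promoters are shown because both genes stood higher in both pairs and both hold the letters of an NF-kB site, searched on both strands as GGGA and TTCC with any 2 bases between them. The windows are the 250 bases before the start site (RefSeq, GRCm38.p6, plus strand) at chr5:90890995-90891244 and chr5:90903649-90903898. Capitals mark overlapping matches on both strands, 71 and 70 bases before the start of Cxcl1 and 97 and 96 before that of Cxcl2.
Cxcl1: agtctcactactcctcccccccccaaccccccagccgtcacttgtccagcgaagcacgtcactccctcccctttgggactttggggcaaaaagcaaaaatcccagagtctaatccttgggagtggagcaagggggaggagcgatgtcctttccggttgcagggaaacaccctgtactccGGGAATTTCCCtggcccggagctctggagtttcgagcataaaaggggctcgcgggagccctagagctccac
Cxcl2: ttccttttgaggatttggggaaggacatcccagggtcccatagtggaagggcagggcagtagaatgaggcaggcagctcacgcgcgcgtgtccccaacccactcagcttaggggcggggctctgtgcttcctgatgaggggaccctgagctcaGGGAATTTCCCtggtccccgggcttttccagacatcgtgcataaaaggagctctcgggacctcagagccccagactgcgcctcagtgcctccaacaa
The counts also cover the 50 bases after the start site. Such letters were found in 6 of 32 matched cytokine and chemokine genes (18.8%), in 5 of 28 matched NF-kB list genes (17.9%) and in 1.63% of all genes in the table. The lists overlap, and the presence of the letters was not compared with the differences.

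Cyclooxygenase products are made by Ptgs1 and Ptgs2. Ptgs2, the inducible enzyme, stood at 0.88 and -0.87 untreated and at 2.45 and -1.98 treated, so replicate 1 was high and replicate 2 low in both arms (0.23 ± 1.38), and Ptgs1 also overlapped. Of 31 genes of prostaglandin and leukotriene synthesis and signalling, 1 was higher, the efflux pump Abcc4 (0.36 and 0.66 untreated, 1.08 and 1.84 treated). Slco2a1, the prostaglandin uptake carrier, was lower (-2.04 and -2.18 untreated, -2.65 and -2.72 treated), as was the reductase Akr1b3 (-0.69 ± 0.27, with 1 of 2 other probes opposite).

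Interferon response genes, 37 measured, had 4 members lower and 1 higher, and a median of -0.33 that was -0.49 and 0.10 in the pairs. Without untreated replicate 1 the median was 0.07, with 2 lower and 3 higher. The lower count was 0 without treated replicate 2 and 8 without untreated replicate 2. Ifi27 (-0.56 ± 0.16), the antiviral Oasl1 (-0.79 ± 0.23) and the exonuclease Isg20 (-0.70 ± 0.21) were the members with the smallest p, whereas Ifit1, Ifit2, Ifit3 and Isg15 overlapped between arms. In inflamed tissue the same list had a median of 0.75 with 11 members higher and 0 lower at p under 0.05, and Ifit1 differed there by 2.10. Of all 21301 genes, 519 were higher and 406 lower in inflamed tissue. Of 23 antigen presentation genes, 2 were lower and 0 higher: the immunoproteasome subunit Psmb10 (2.0 and 2.04 untreated, 1.39 and 1.41 treated) and the class II chain H2-Aa (-0.46 ± 0.15).

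Cell division genes reached a p under 0.05 no more often than all genes. Of 45 cell cycle and replication genes, 2 were higher and 0 lower, beside 4.5% and 3.23% of all genes. In both pairs 20 (44.4%) were higher and 5 (11.1%) lower, beside 30.6% and 27.3% of all genes. The median was 0.18, but 0.006 without treated replicate 1, and 0.27 with median centring and no loess. Cdc25b, the phosphatase that starts mitosis, stood at -0.40 and -0.33 untreated and at 0.55 and 0.71 treated (1.0 ± 0.20, adjusted p = 0.45 in limma), and the ribonucleotide reductase Rrm1 differed by 0.58 ± 0.22. Mki67 and Mcm2 overlapped between arms, while Top2a (0.38 ± 0.56) and Pcna (0.31 ± 0.30) did not. Of 38 DNA repair and checkpoint genes, Fancd2, of the crosslink repair pathway, was higher (0.76 ± 0.23) and Trp53 lower, at 0.61 and -0.19 untreated and at -0.81 and -0.91 treated, with its other probe opposite.

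Apoptosis regulators had 3 of 32 members higher and 0 lower. Bcl2, which blocks the mitochondrial pathway, stood at -0.49 and -0.86 untreated and at 0.39 and 1.48 treated (1.61 ± 0.38, 3.05-fold, adjusted p = 0.55 in limma). Bmf, a BH3-only protein that opposes Bcl2, stood at 0.07 and -0.14 untreated and at 1.04 and 0.82 treated (0.97 ± 0.19). The third was the caspase 8 inhibitor Cflar (0.72 ± 0.30), with 3 of 6 other probes opposite. Bcl2l1 and Mcl1 overlapped. The count was 5 higher and 1 lower without untreated replicate 1 and 3 higher and 2 lower without treated replicate 1.

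Growth factor genes stood on both sides. Of 23 genes of the EGF receptor family, 1 was higher and 1, Ereg, was lower. Egfr, the receptor of EGF, differed by -0.71 ± 0.30 with 1 of 4 other probes opposite, and Spry1, a feedback inhibitor, was the higher one (-0.21 and -0.98 untreated, 0.15 and 0.53 treated). Of 28 BMP and TGF-beta genes, 3 were higher: the receptor Bmpr2 (1.23 ± 0.35), the ligand Tgfb2 (1.44 ± 0.46) and, chosen after its value was seen, the receptor Tgfbr1 (1.02 ± 0.35). Id3, a direct BMP target, was lower (0.72 and 0.55 untreated, 0.11 and -0.28 treated). The higher count in this list was 0 without treated replicate 2 and 0 without untreated replicate 2.

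Among genes of other stress and regulatory lists, Klf4, a differentiation factor of the epithelium, stood at 3.95 and 3.17 untreated and at 2.20 and 1.98 treated (-1.47 ± 0.26, adjusted p = 0.44 in limma). Egr1, an immediate early gene, stood at -2.64 and -4.30 untreated and at -1.06 and -2.11 treated (1.89 ± 0.66), and Fos overlapped between arms. Of 32 genes of the unfolded protein and integrated stress responses, 4 were lower and 1 higher, with the pseudokinase Trib3 (-0.60 ± 0.15), the asparagine synthetase Asns (-0.89 ± 0.28) and the disulfide isomerase Pdia4 (-0.71 ± 0.24) among the lower. The lower count there was 1 without treated replicate 2 and 6 without treated replicate 1. Clock genes had 2 of 20 members higher, Clock (0.84 ± 0.26, with 1 of 3 other probes opposite) and Rora (0.43 ± 0.15). Of 36 sterol and lipid synthesis genes 2 were lower, the desaturase Fads2 (-0.52 ± 0.21) and the last enzyme of cholesterol synthesis, Dhcr7 (-0.45 ± 0.18), and 0 were higher.

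Lists of markers were read for other cells that the captured areas could hold. B and plasma cell genes had most members on the lower side: of 22 measured, 3 were lower at p under 0.05 and 0 higher, 17 were lower and 0 higher in both pairs, and the median was -0.84. The summed sample intensity of the list, in scanner units, was 52472 and 15963 in untreated and 8615 and 7980 in treated polyps. Mzb1, a plasma cell chaperone, stood at 2.62 and 1.32 untreated and at 0.18 and 0.28 treated, and Cd79b, a B cell receptor chain, at 3.02 and 3.31 against 0.79 and 0.36. Ms4a1, which encodes CD20, stood at 0.54 and 3.58 untreated and at 0.03 and 0.11 treated, so untreated replicate 2 held it and the other 3 did not stand above the reference by more than 0.54. Without untreated replicate 1 the list had 0 members at p under 0.05 and a median of -0.54, and it had 1 lower without treated replicate 2 and 6 lower without untreated replicate 2. None of the 22 was below background on every polypoid array. The part of lymphoid tissue in the results on the other lists was not tested.

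Neutrophil genes, 20 measured, had 0 members at p under 0.05, a median of 0.02 (0.20 and -0.18 in the pairs) and summed intensities of 22835 and 25823 untreated and 27408 and 14793 treated. Without treated replicate 1 the median was -0.31 with 3 lower, and without treated replicate 2 it was 0.26 with 3 higher. S100a8, a calprotectin subunit, stood at 5.46 and 5.31 untreated and at 5.63 and 4.18 treated. Macrophage and dendritic cell genes had 2 of 31 lower, Lyz2 and the endotoxin coreceptor Cd14 (3.53 and 3.22 untreated, 2.87 and 1.96 treated), and 0 higher. T and NK cell genes had 1 of 29 higher, granzyme B (Gzmb, 1.98 and 1.51 untreated, 2.96 and 2.93 treated), and Cd3d, Cd3e, Cd3g and Cd247 overlapped between arms.

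Of 41 fibroblast and matrix genes, 2 were higher and 0 lower at p under 0.05, 8 (19.5%) were higher and 17 (41.5%) lower in both pairs, and the median was -0.20. The median was 0.019 without untreated replicate 1 and -0.10 with median centring and no loess. The 2 were Vim, the intermediate filament of mesenchymal cells (-1.07 and -1.89 untreated, -0.41 and -0.62 treated, saturated on 2 treated arrays), and the metalloproteinase inhibitor Timp2 (0.91 ± 0.35), while 4 collagen genes, Col1a1, Col1a2, Col3a1 and Col5a1, overlapped. Endothelial genes had 2 of 18 higher and 1 lower, with a median of -0.031 that was -0.18 and 0.093 in the pairs and 0.12 without untreated replicate 1. Sox17, a transcription factor of endothelium whose protein also binds beta-catenin, stood at 2.64 and 3.62 untreated and at 5.55 and 5.79 treated (2.55 ± 0.39, 5.84-fold, adjusted p = 0.43 in limma). Prox1, a factor of lymphatic endothelium that is also in the Wnt list, was the other higher member, the adhesion gene Icam2 was lower (-0.76 ± 0.20), and Cdh5 overlapped. Smooth muscle genes had 0 of 20 members at p under 0.05 in polyps, against 0 higher and 9 lower in inflamed tissue. There, 519 of all 21301 genes were higher and 406 lower. Of 25 metalloproteinase genes and their regulators, 3 were higher, Timp2, the plasminogen activator Plat (0.76 ± 0.24) and Mmp11 (0.47 ± 0.18), and Mmp3, a stromelysin, stood at 3.99 and 2.04 untreated and at 1.30 and 0.28 treated (-2.23 ± 1.11). Enteric neuron and glia genes had 1 of 15 higher, mast cell and eosinophil genes 1 higher and 1 lower of 15, and red blood cell genes 0 of 5. The plot of the list medians sets all 40 lists side by side.

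**Figure D4:**
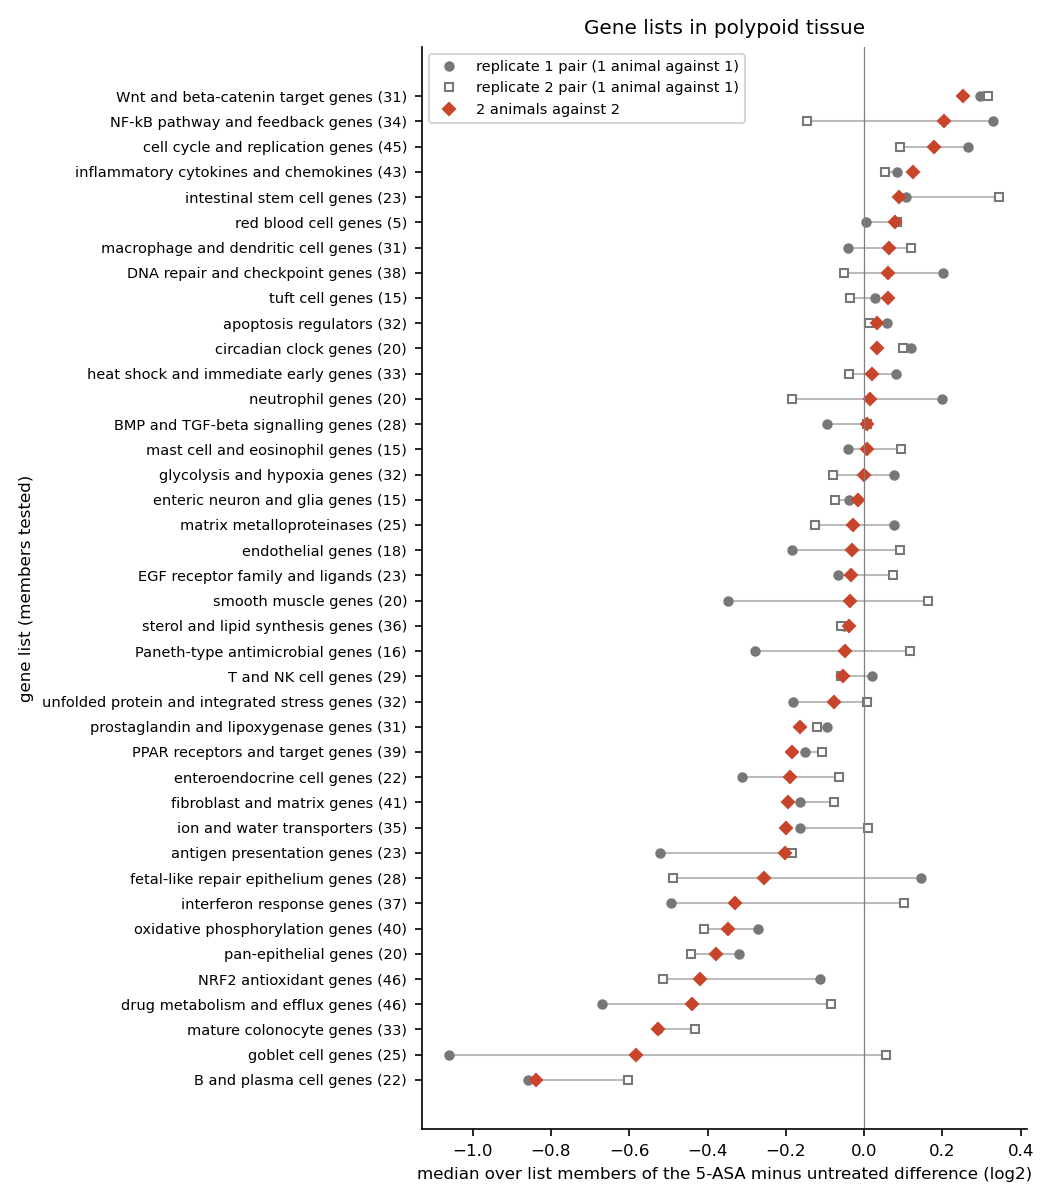
Median over the members of each of 40 lists of the difference of 5-ASA minus untreated polyps (log2, x axis), for 2 animals against 2 (red) and within the replicate 1 pair (filled grey) and the replicate 2 pair (open grey). The Wnt, colonocyte and oxidative phosphorylation medians have the same sign in both pairs, whereas the goblet median runs from -1.06 to 0.06.

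In inflamed mucosa of the same model (2 animals an arm, with a single array, the sample in Cy3, for treated replicate 2), 5-ASA minus untreated had 0 genes at an adjusted p under 0.05 and 925 (4.34%) at an unadjusted p under 0.05. Of these 925, 519 were higher and 406 lower. Whether the 5-ASA difference itself differed between polyps and inflamed tissue was tested by the interaction in limma. The interaction was under 0.05 for 0 genes after adjustment (smallest adjusted p = 0.80) and for 1269 genes (5.96%) before it. For Prom2 the difference was 1.56 in polyps and 0.02 in inflamed tissue (interaction 1.54 ± 0.21), and only 2 of the 7 inflamed arrays read its probe well above background. Cdh1 differed by -0.52 in polyps and by 1.40 in inflamed tissue, and Axin2 by 0.99 and 0.09. Over the 31 genes of the Wnt list the median was 0.25 in polyps and 0.16 in inflamed tissue. In inflamed tissue 3 of them were higher and 0 lower at p under 0.05. No gene is therefore shown to differ in polyps alone.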

How the data were processed

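Whole-genome expression was measured on 15 dual-colour Agilent arrays. Per the file headers, the deposited scanner files hold intensity values per spot and channel, read by Agilent Feature Extraction 9.1.1.1. Also per the file headers, they give a log10 ratio of red over green, used to check the direction. A deposited table of log2 ratios, whose background correction is not stated, served as an alternative.

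Intensities were corrected by normexp (offset 50) and loess within arrays in limma 3.58.1 (R 4.3.3), with control spots at weight 0 and outlier spots left out. The offset, added to both channels, draws the ratio of a probe dim in both toward 0. Wdr72, above background on 0 inflamed arrays, stood between -0.08 and 0.004 there. Values near 0 in treated polyps, as for Aqp8, Slc26a3, Gcg and Insl5, can lie close for this reason, which was not tested. Their folds can be understated. Ratios were turned to sample over reference, and a fit of animal plus dye gave 1 value per animal. For 7 of the 8 animals it drew on both dyes, and for treated inflamed replicate 2, scanned alone, on 1 array with the sample in Cy3. Of 41174 probes, 22864 were named through RefSeq accessions, 10230 by name, and 8080 kept the array's name. A probe was kept where, in 1 group or more, all arrays read it well above background in the sample's dye. A gene is its brightest such probe. This left 21301 genes, 2 of them with a missing value. The spots well above background made up 57.4% to 90.9% of an array, and 2 animals a group limit the precision.

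The 4 groups shared 1 estimate of spread in limma (4 residual degrees of freedom). The same-number animals' deviations correlated at 0.035 across genes, and the numbers, which the labels tie to nothing shared, were not used as a block. In polyps they coincide with the scan session. The samples, the 40 lists (1147 of 1233 entries tested) and the tests were chosen with earlier results of these data known. Named genes were, per direction, 12 with the smallest p that agreed in sign in both pairs without overlap (3 unnamed genes were skipped, and 1 of the 24 is not reported here), and per list the 3 with the smallest p and the first 4. Motifs were chosen after the values were seen. The fit was tested on simulated data. Figures used matplotlib 3.10.9 in Python 3.11.15.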

Additional observations from a re-analysis of the deposited data

Results flagged for a closer look

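The list medians moved in opposite directions in the tissues, with no overlap between arms in either, for 2 lists. The median level of the pan-epithelial genes was 3.65 and 3.50 untreated and 3.42 and 2.82 treated in polyps, but 3.21 and 2.71 untreated and 3.78 and 3.66 treated in inflamed tissue, so that the polyp difference of median levels minus the inflamed one was -1.21. On the median of the members' differences, the gap was -0.56. The median level of the drug metabolism and efflux genes was 0.74 and 0.27 untreated and 0.11 and 0.06 treated in polyps, but 1.02 and 0.78 untreated and 1.45 and 1.24 treated in inflamed tissue, a gap of -0.87, or -0.61 on the median of the members' differences. These differences between tissues were not tested at the level of the lists.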

How the results depend on the processing

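The count of genes at an adjusted p under 0.05 in polyps was 0 in limma and stayed 0 under the alternatives run, except with the scanner software's processed signals, where it was 1: LOC434609, at -3.49 with an adjusted p of 0.0208 against -1.05 and 0.66 in the reported analysis. The cause was not tested. The count at an unadjusted p under 0.05 ran from 790 without treated polypoid replicate 2 to 2458 without untreated polypoid replicate 1, and from 1435 to 2156 in the other 16 settings. With the replicate number as a block, which over the polypoid animals is the scan session, 0 genes passed after adjustment and 1554 before it (2156 with a block over all animals), and no call changed. Leaving out an animal leaves its arm with 1 sample, which is assumed to vary like the other groups. The counts over all genes move as well, so a change of a list's count there is not a property of the list alone. The counts of list members without each polypoid animal were added after seeing the data: for 20 of the 22 lists with 1 to 3 members at p under 0.05, leaving out 1 animal moved the count by over 1.5 times, from a lowest of 0 to a highest of 20 (drug metabolism and efflux, without untreated replicate 2). Across the 26 settings, 129 of 4584 values of the 177 named genes had the opposite sign, in 46 genes. So did 82 of 1040 list medians. Settings that altered only the spread, the block or the inflamed animals could not change the polyp difference. They are counted among the 26, so these shares understate how far signs can move. The sign of the lead genes was fixed in part by their choice.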
